A study of Mus musculus with 16 samples.

Results

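The adult globin genes Hba-a1, Hba-a2, Hbb-bs and Hbb-bt and the erythroid haem enzyme gene Alas2 were followed through liver RNA of 16 female mice. These 5 genes were chosen by symbol from the 15544 genes of the liver table, and all 5 passed the filter on low values. The study asked how loss of oestrogen receptor alpha in the hypothalamus raises bone mass in females, and profiled several tissues under chow or a high-fat diet (HFD). Liver was measured by bulk RNA sequencing with 1 library per mouse. Control mice were homozygous for a floxed Esr1 allele, which encodes the receptor (Esr1fl/fl). Mutants carried the same floxed alleles plus a Cre recombinase driven by Nkx2-1, so recombination depended on cells that express or once expressed Nkx2-1 rather than on liver cells. The 4 groups were Control_Chow, Mutant_Chow, Control_HFD and Mutant_HFD, with 4 mice each. All mice were 27 weeks old, the HFD groups had received the diet for 17 weeks, and the colony was kept on a mixed strain background. The labels gave no replicate numbers, so libraries are numbered within a group in the order of their records, and the numbers pair nothing across groups.

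Haemoglobin of the adult mouse is a tetramer of alpha chains, encoded by Hba-a1 and Hba-a2, and beta chains, encoded by Hbb-bs and Hbb-bt. Alas2 encodes the erythroid enzyme for the opening step of haem synthesis, and its relative Alas1 serves that step in liver and other tissues. Red cells of mammals lose their nucleus, but the youngest of them keep globin RNA for a while, so an organ collected with its blood yields globin reads. The fetal liver makes red cells, whereas in the adult this takes place mainly in bone marrow and spleen. Whether livers were flushed before RNA extraction was not stated in the sources used here. In bulk RNA, fewer cells of a type and less RNA per cell cannot be told apart.

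Libraries also fall into 4 series by the numbers in their titles. The labels do not give the meaning of the series, and each lies within 1 diet. The lower-numbered HFD series (L23x) holds controls 1 to 3 and mutant 1, and the higher-numbered HFD series (L33x-L34x) holds mutants 2 to 4 and control 4. Series L31x holds chow controls 1 and 2 and chow mutant 1, and series L32x holds chow controls 3 and 4 and chow mutants 2 to 4. Genotype and series are therefore largely aligned among HFD libraries, with 1 library in each series against the majority. Values are normalised values on the TPM scale (a share of the library corrected for transcript length, then adjusted between libraries). The hepatocyte gene Alb reached 36040 to 79770 on this scale in the 16 libraries. Esr1, the targeted gene, was measured in every liver group, at 7.59 to 15.95 in Control_Chow, 8.02 to 19.7 in Mutant_Chow, 6.14 to 8.09 in Control_HFD and 6.42 to 22.9 in Mutant_HFD, so liver Esr1 does not check the mutant label, and Nkx2-1 had no row in the table used.

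The genes of each chain are close copies, and the letters at which they differ bear on every value below. Hba-a1 (ENSMUSG00000069919) lies on chromosome 11 at 32283511 to 32284465 and Hba-a2 (ENSMUSG00000069917) at 32296489 to 32297298, both on the plus strand of GRCm38 (mm10). Hbb-bs (ENSMUSG00000052305) lies on chromosome 7 at 103826534 to 103828096 and Hbb-bt (ENSMUSG00000073940) at 103812524 to 103813996, both on the minus strand. Alas2 (ENSMUSG00000025270) lies on chromosome X at 150547375 to 150570638 on the plus strand. All 5 are annotated as protein-coding genes. The alpha coding sequences of 429 bases differ at 1 base, C381T from Hba-a1 to Hba-a2, in codon 127, counting from the A of the start codon. The coding stretch around that base is shown for each gene, with the differing letter in capitals, because it is the only coding letter by which a read could tell the pair apart.
Hba-a1: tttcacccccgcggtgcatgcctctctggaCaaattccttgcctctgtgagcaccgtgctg
Hba-a2: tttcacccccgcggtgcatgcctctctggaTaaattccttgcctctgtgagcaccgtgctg

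The beta coding sequences of 444 bases also differ at 1 base, C417T from Hbb-bs to Hbb-bt, in codon 139. The last coding stretch of both is shown in the same way.
Hbb-bs: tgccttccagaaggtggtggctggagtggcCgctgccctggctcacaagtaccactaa
Hbb-bt: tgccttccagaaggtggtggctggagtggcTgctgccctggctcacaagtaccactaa

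Outside the coding sequence the pairs are less alike for beta than for alpha. The Hba-a1 and Hba-a2 transcripts of 699 and 554 bases aligned over 538 bases with 1 mismatch, whereas those of Hbb-bs and Hbb-bt, of 628 and 703 bases, aligned over 607 bases with 37 mismatches. Of the 524 words of 31 bases in the whole Hba-a2 transcript, 91.0% also occur in Hba-a1, against 59.4% of the 673 words of Hbb-bt that occur in Hbb-bs. The other way the pairs were closer, with 71.3% of the 669 words of Hba-a1 found in Hba-a2 and 66.9% of the 598 words of Hbb-bs found in Hbb-bt. Hba-a1 and Hbb-bs shared no such word. These are letters of the reference annotation (GENCODE M21), and the alleles of these mice may differ from it.

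Promoters are shown as a description of sequence. The 5 genes varied together across libraries, as described below, and whether their promoters bear on that was not tested. Each window holds the 250 bases before the RefSeq gene start (GRCm38.p6), written 5′ to 3′ on the gene's own strand, and the GENCODE bounds of all 5 genes begin inside it. Capitals mark 4 motifs on either strand. GATAA is of the kind known to bind GATA factors, CACCC the Krüppel-like factors, CCAAT the factors named for it, and ATATAA the TATA-binding protein. The motifs were chosen with the sequences in view, and no match of one motif overlapped a match of another in the printed windows.
Hba-a2, chr11:32296242-32296491, plus strand: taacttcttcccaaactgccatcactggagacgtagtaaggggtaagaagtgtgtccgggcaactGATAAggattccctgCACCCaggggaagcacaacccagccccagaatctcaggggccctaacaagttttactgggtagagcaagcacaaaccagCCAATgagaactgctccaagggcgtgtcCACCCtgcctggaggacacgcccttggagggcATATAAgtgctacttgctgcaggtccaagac
Hbb-bs, chr7:103827929-103828178, minus strand: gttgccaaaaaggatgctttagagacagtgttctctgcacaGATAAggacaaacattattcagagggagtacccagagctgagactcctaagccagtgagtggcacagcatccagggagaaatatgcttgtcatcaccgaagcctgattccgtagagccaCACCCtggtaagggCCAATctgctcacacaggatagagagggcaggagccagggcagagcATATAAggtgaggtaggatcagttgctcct
Alas2, chrX:150547167-150547416, plus strand: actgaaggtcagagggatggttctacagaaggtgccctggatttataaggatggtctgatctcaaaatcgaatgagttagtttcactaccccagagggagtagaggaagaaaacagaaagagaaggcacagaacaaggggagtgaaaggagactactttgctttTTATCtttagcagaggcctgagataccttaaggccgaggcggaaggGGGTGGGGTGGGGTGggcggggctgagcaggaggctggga

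The windows of Hba-a1 and Hba-a2 were identical over the 247 bases that aligned, whereas the aligned windows of Hbb-bs and Hbb-bt had 49 mismatches. All 4 globin windows held every motif, with ATATAA beginning 28 to 31 bases before the start. The Alas2 window held GATAA and CACCC on the minus strand, the latter 3 times in a row, and neither of the other motifs. Among all 32851 promoters of this length, GATAA was found in 22.6%, the CACCC motif in 52.0%, the CCAAT motif in 33.8% and the ATATAA motif in 9.1%. A match is a description of letters, and no occupancy was measured.

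Globin RNA was abundant in every liver, and its sum ranged more widely within each group than the group means did. The 4 globins summed to 1616 in Control_Chow 3, the lowest library, and to 6895 in Control_HFD 1, the highest, a 4.27-fold range. This was 0.171% and 0.663% of all values in those libraries. Within a library Hba-a2 ranked between place 49 and place 168 of the 15544 genes, Hbb-bs between 54 and 196, Hba-a1 between 63 and 408 and Hbb-bt between 378 and 1483. Alas2 ranked between 3262 and 8153. The mean globin sum was 3138 ± 1563 (SD, n = 4) in Control_Chow, 3601 ± 1204 in Mutant_Chow, 4554 ± 2148 in Control_HFD and 4112 ± 1074 in Mutant_HFD. By title series the means were 2920 ± 1414 (SD, n = 3) in L31x, 3639 ± 1337 (n = 5) in L32x, 5429 ± 993 (n = 4) in L23x and 3237 ± 1307 (n = 4) in L33x-L34x. The L23x libraries, at 4811 to 6895, thus lay above all 4 libraries of L33x-L34x, at 1686 to 4533.

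Hba-a1 was the alpha gene that stood apart by title series. Its values in Control_Chow 1 to 4 were 416.5, 915.9, 303.1 and 877.2, and in Mutant_Chow 1 to 4 they were 454.5, 723.1, 1078 and 639.5. In Control_HFD 1 to 4 they were 1445, 1693, 1606 and 304.3, and in Mutant_HFD 1 to 4 they were 1734, 762.4, 544.4 and 860.7. The 4 highest values of all 16 were the 4 libraries of L23x, controls and mutant alike, and the lowest HFD value was the only control of L33x-L34x. The diets and genotypes overlapped.

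Hba-a2, the other alpha gene, did not follow that order. It measured 740.5, 1766, 671.5 and 1699 in Control_Chow 1 to 4 and 836.6, 1462, 1934 and 1257 in Mutant_Chow 1 to 4. It measured 2645, 1096, 1141 and 666.8 in Control_HFD 1 to 4 and 1175, 1573, 1014 and 1817 in Mutant_HFD 1 to 4. Of the L23x libraries, only Control_HFD 1 was above all chow libraries, and the other 3 lay below 5 of the 8 chow libraries.

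The division of alpha values between the copies took 2 distinct levels. Hba-a1 made up 60.7% of the alpha sum in Control_HFD 2, 58.5% in Control_HFD 3 and 59.6% in Mutant_HFD 1, against 31.1% to 36.0% in the other 13 libraries. Those 3 libraries are all of L23x, but Control_HFD 1, also of L23x, was at 35.3%. The share thus followed neither genotype nor diet nor, fully, the series. The alpha sum itself did not set the 3 libraries apart: it was 2789, 2747 and 2909 in them, against 2681 in Control_Chow 2, 3012 in Mutant_Chow 3 and 4091 in Control_HFD 1. How reads common to both copies were divided by the authors' software was not tested. Hba-a1 and Hba-a2 values taken singly are therefore uncertain, and the alpha sum is given beside them.

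**Figure D1:**
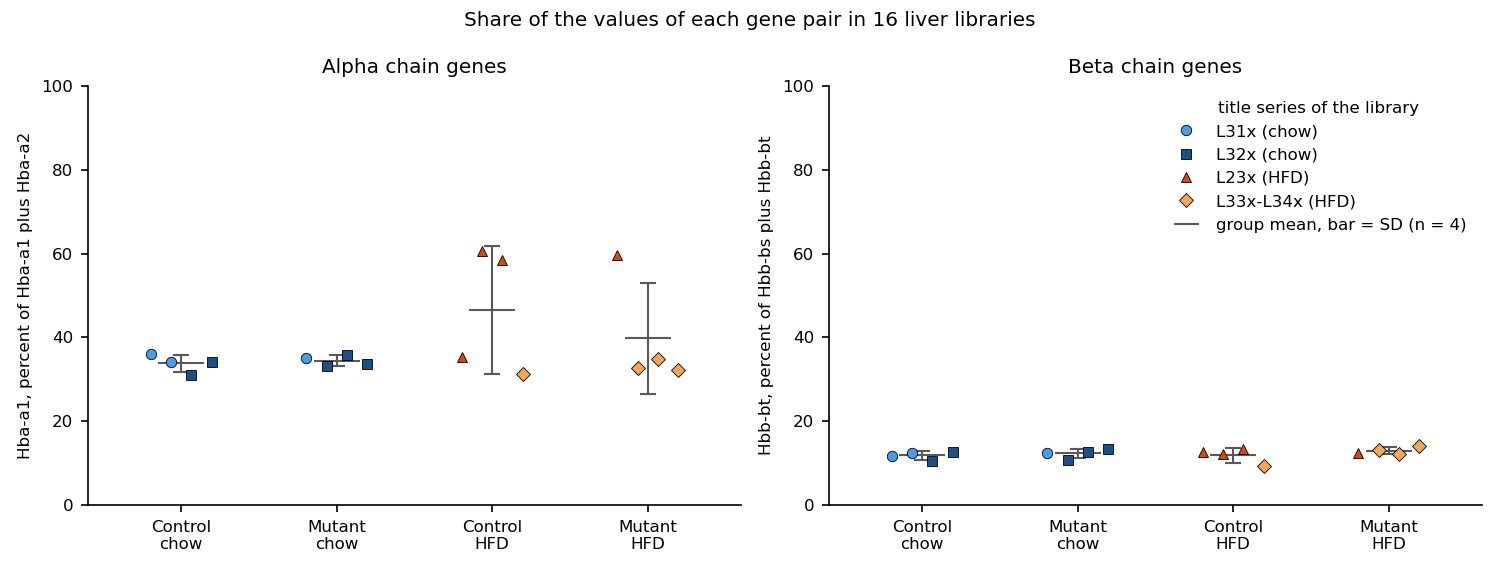
Share of each chain's values carried by Hba-a1 (left, percent of Hba-a1 plus Hba-a2) and by Hbb-bt (right, percent of Hbb-bs plus Hbb-bt) in each of the 16 libraries, by group, with the group mean and SD (n = 4) and symbols for the title series. The 3 triangles of series L23x that stand apart sit at 58.5% to 60.7% in the left panel, all other libraries at 31.1% to 36.0%, whereas the right panel shows 9.21% to 14.2% throughout.

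The beta genes kept a nearly steady division, with most of the values in Hbb-bs. Hbb-bs measured 712.4, 1631, 574.4 and 1614 in Control_Chow 1 to 4 and 840.8, 1424, 1856 and 1160 in Mutant_Chow 1 to 4. In HFD livers it measured 2449, 1787, 1788 and 648.8 in controls 1 to 4 and 1994, 1510, 962.4 and 1592 in mutants 1 to 4. The L23x libraries were above those of L33x-L34x without overlap, but Mutant_Chow 3 exceeded 2 of them.

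Hbb-bt, the lesser beta gene, followed Hbb-bs at a lower level. Its values were 95.1, 232.5, 66.9 and 236.0 in Control_Chow 1 to 4 and 119.8, 169.8, 271.1 and 178.4 in Mutant_Chow 1 to 4. They were 355.8, 247.6, 275.2 and 65.8 in Control_HFD 1 to 4 and 283.4, 228.2, 134.0 and 262.6 in Mutant_HFD 1 to 4. Mutant_HFD 4 of L33x-L34x exceeded Control_HFD 2 of L23x, so these series overlapped. Hbb-bt made up 9.21% to 14.2% of the beta sum, with a mean of 12.3% ± 1.24 (SD, n = 16).

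Alas2 was read at a far lower level than the globins and kept much of their order of libraries. It measured 9.21, 17.0, 6.61 and 13.8 in Control_Chow 1 to 4 and 6.26, 11.2, 15.1 and 11.3 in Mutant_Chow 1 to 4. It measured 27.1, 23.6, 19.5 and 9.23 in Control_HFD 1 to 4 and 22.2, 13.5, 9.51 and 13.9 in Mutant_HFD 1 to 4. The 4 libraries of L23x, at 19.5 to 27.1, were above all 12 others, whose highest was Control_Chow 2. The 4 libraries of L33x-L34x, at 9.23 to 13.9, lay within the chow range of 6.26 to 17.0.

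**Figure D2:**
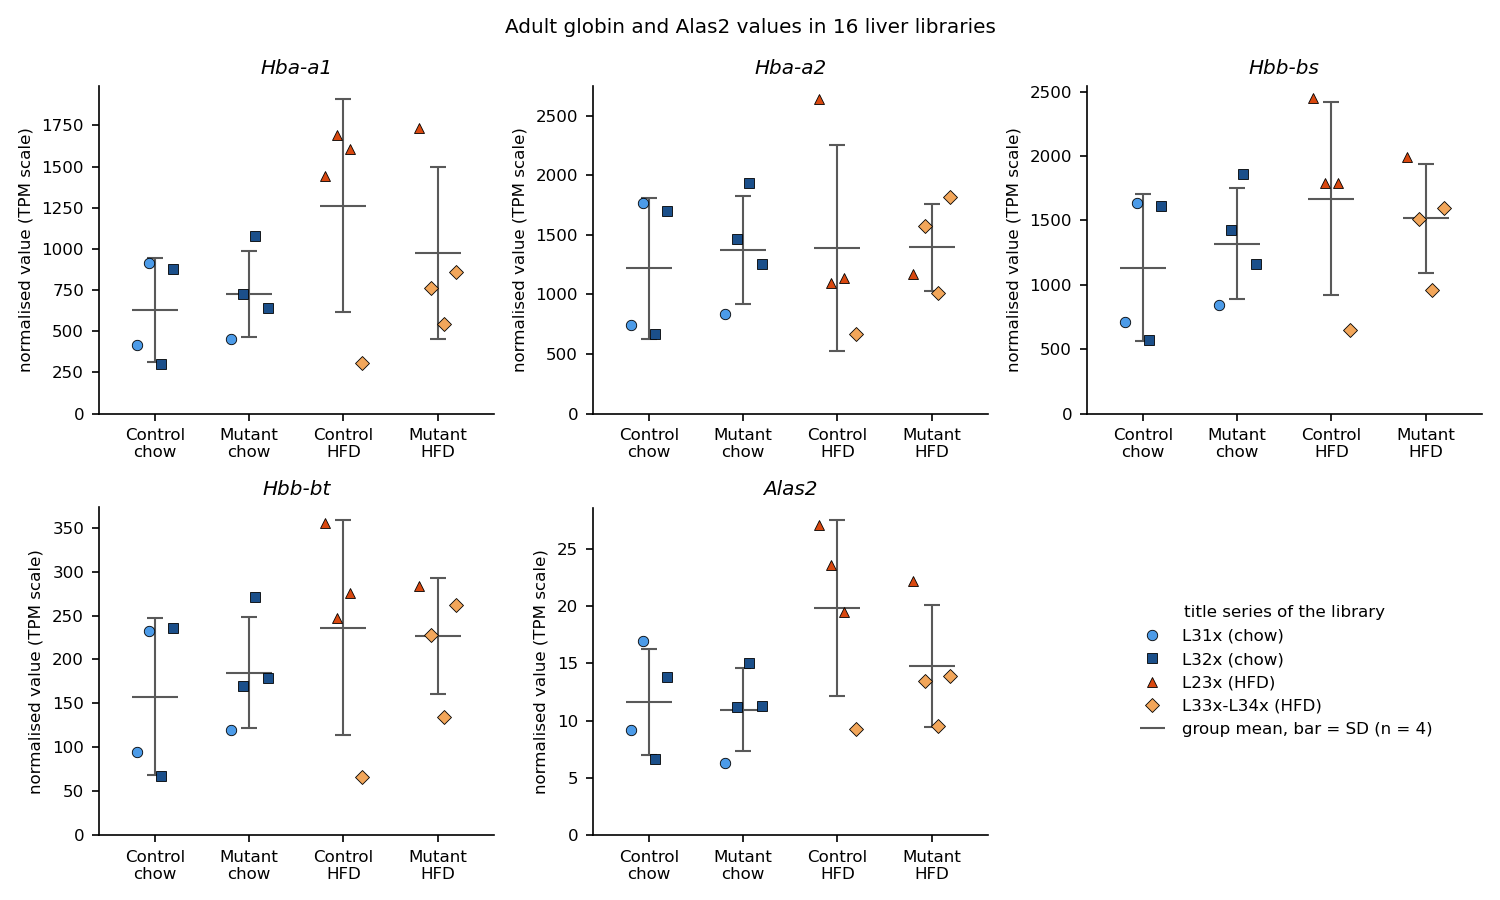
Normalised values (TPM scale) of Hba-a1, Hba-a2, Hbb-bs, Hbb-bt and Alas2 in each of the 16 libraries, by group, with the group mean and SD (n = 4) and symbols for the title series. For Hba-a1 and Alas2 the 4 triangles of series L23x sit above every other library, 3 of them in Control_HFD and 1 in Mutant_HFD.

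Across libraries the 5 genes moved together, with Hba-a2 the least close to the rest. Over 16 libraries the Spearman coefficient was 0.97 between Hbb-bs and Hbb-bt, 0.96 between Hba-a1 and Hbb-bs, and 0.60 between Hba-a1 and Hba-a2. Alas2 had 0.94 with Hbb-bs, 0.95 with Hba-a1 and 0.64 with Hba-a2. These coefficients describe libraries that share groups, series and normalisation, and no p is attached to them. The ratio of the alpha to the beta sum was 1.28 to 1.52, a narrower range than that of any member. Alas2 per 1000 units of beta sum was 9.58 ± 1.69 (SD, n = 4) in Control_Chow, 7.26 ± 0.82 in Mutant_Chow, 10.9 ± 1.65 in Control_HFD and 8.42 ± 1.02 in Mutant_HFD. The lowest control ratios, 7.47 on chow and 9.44 on HFD, were below the highest mutant ratios, 8.43 and 9.75, so the genotypes overlapped on each diet and this ratio was not tested.

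**Figure D3:**
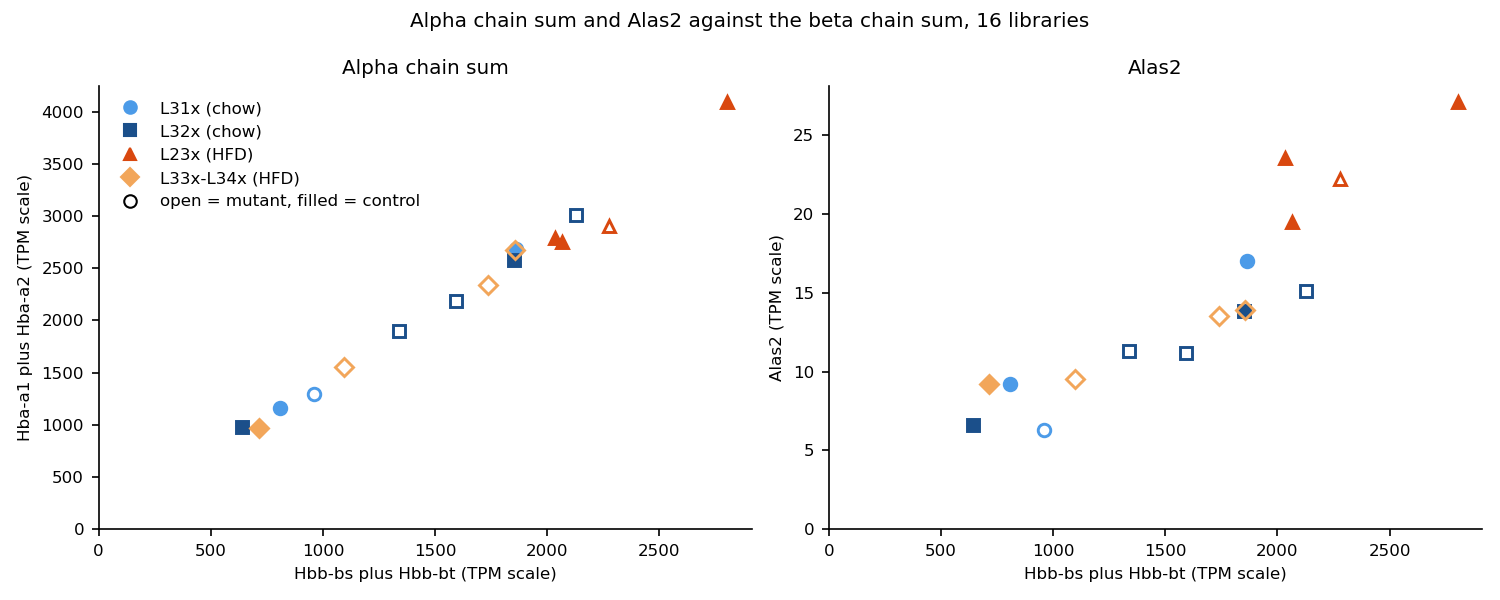
Alpha sum (left) and Alas2 (right) against the beta sum, all on the TPM scale, for 16 libraries, with symbols for the title series and open symbols for mutants. The alpha sum stays at 1.28 to 1.52 times the beta sum, and the 4 L23x libraries hold the 4 highest Alas2 values.

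Among all tested genes with a mean of at least 5, none of the 8721 compared was closer to the mean of the 4 globins than Alas2, whose Spearman coefficient was 0.94 over 16 libraries. The 10 closest genes outside the members were Mrps11, Nedd8, Cgrrf1, Anapc11, Isca2, Abcb8, Ftl1, Avpi1, Ccdc61 and Zfp771, with coefficients from 0.90 for Mrps11 to 0.81 for Zfp771. The 99th percentile of all genes was 0.71. Mrps11 encodes a mitochondrial ribosomal protein, Nedd8 a ubiquitin-like protein, Anapc11 a subunit of the anaphase-promoting complex, Isca2 an iron-sulphur cluster protein and Ftl1 the ferritin light chain. Ftl1 ranged from 3407 to 7655 and had a coefficient of 0.82. When the group means were first taken out, 4 of these genes were again among the 10 closest by Pearson coefficient. The likeness is over libraries that share series, and says nothing of shared function.

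The comparison of mutants with controls asked whether loss of the receptor changed globin RNA in liver. No member passed the adjusted threshold of 0.05 on either diet. On chow the log2 differences, mutant minus control, were 0.29 (SE 0.53) for Hba-a1, 0.25 (SE 0.41) for Hba-a2, 0.31 (SE 0.42) for Hbb-bs, 0.37 (SE 0.50) for Hbb-bt and -0.06 (SE 0.35) for Alas2. The limma adjusted p-values, over 12704 tested genes, were 0.9951 to 0.9995. On HFD the differences were -0.24 (SE 0.53) for Hba-a1, 0.16 (SE 0.41) for Hba-a2, -0.03 (SE 0.42) for Hbb-bs, 0.13 (SE 0.50) for Hbb-bt and -0.36 (SE 0.35) for Alas2, with limma adjusted p-values of 0.725 to 0.987. With an unadjusted p under 0.05 as the rule, 0 of 5 members were called on chow, against 6.08% of all tested genes, and 0 of 5 on HFD, against 8.6%. With the adjusted rule, 0.0236% of tested genes were called on chow and 0.0157% on HFD. The summed pairs differed by 0.26 (SE 0.43) for alpha and 0.32 (SE 0.43) for beta on chow, and by -0.03 (SE 0.43) and -0.02 (SE 0.43) on HFD.

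Within a title series the genotype difference of the members changed sign. In L33x-L34x, with 3 mutants and 1 control, mutants were higher by 1.22 for Hba-a1, 1.10 for Hba-a2, 1.03 for Hbb-bs, 1.59 for Hbb-bt and 0.36 for Alas2 on the log2(value + 1) scale. In L23x, with 1 mutant and 3 controls, the differences were 0.14, -0.34, 0.01, -0.03 and -0.06 in the same order. In the chow series L31x they were -0.44, -0.45, -0.36, -0.31 and -0.90, with 1 mutant and 2 controls, and in L32x they were 0.62, 0.51, 0.59, 0.68 and 0.34, with 3 mutants and 2 controls. These within-series values rest on 1 to 3 libraries a side and carry no test. When each library was weighted by its own spread, Hba-a1 and Alas2 fell in HFD mutants, with log2 differences of -1.02 and -0.77 and limma adjusted p-values of 0.0459 and 0.0377. That fit gave Control_HFD 4 the lowest weight, 0.228, and Mutant_HFD 1 the next lowest, 0.329, the libraries that stand against the majority genotype of their series. With a term for the series, the HFD differences of Hba-a1 and Alas2 were 0.68 and 0.15, the other way round, with limma adjusted p-values of 0.9996.

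The comparison of diets asked whether HFD changed red cell RNA in liver. The fitted differences of all 5 members were above 0 in both genotypes, and none passed the threshold. In controls the log2 differences, HFD minus chow, were 0.89 (SE 0.53) for Hba-a1, 0.14 (SE 0.41) for Hba-a2, 0.56 (SE 0.42) for Hbb-bs, 0.55 (SE 0.50) for Hbb-bt and 0.70 (SE 0.35) for Alas2. The limma adjusted p-values were 0.414 for Alas2 and 0.487 to 0.907 for the globins. In mutants the differences were 0.36 (SE 0.53), 0.05 (SE 0.41), 0.21 (SE 0.42), 0.30 (SE 0.50) and 0.40 (SE 0.35) in the same order, with limma adjusted p-values of 0.885 to 0.995. By unadjusted p, 0 of 5 members were called in controls, against 12.9% of tested genes, and 0 of 5 in mutants, against 6.86%. By adjusted p, 0% of tested genes were called in either genotype. The genotype by diet interaction ranged from -0.53 (SE 0.75) for Hba-a1 to -0.09 (SE 0.58) for Hba-a2, with limma adjusted p-values of 0.919 to 0.979. By unadjusted p, 0 of 5 members were called there, against 4.21% of tested genes, and by adjusted p 0% of genes.

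The sign of the diet difference in controls depended on which title series was kept. Without L23x, which leaves Control_HFD 4 alone on HFD, the log2 differences in controls were -0.89 for Hba-a1, -0.73 for Hba-a2, -0.65 for Hbb-bs, -1.04 for Hbb-bt and -0.23 for Alas2, with limma adjusted p-values of 0.646 to 0.909. That fit assumes that the lone library varies like the other groups. Without L33x-L34x, Hba-a1 rose by 1.48 in controls, with a limma adjusted p of 0.0325. Leaving out Control_HFD 4, the same library, from the full fit gave the same difference of 1.48 and a limma adjusted p of 0.0472. Diet and series cannot be told apart, because no series holds both diets. A fit with a series term, which sets L23x against L31x, gave 1.44 for Hba-a1 in controls, with a limma adjusted p of 0.0488. Library weights gave 1.46 for Hba-a1 and 0.98 for Alas2, with limma adjusted p-values of 0.0206 and 0.028.

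**Figure D4:**
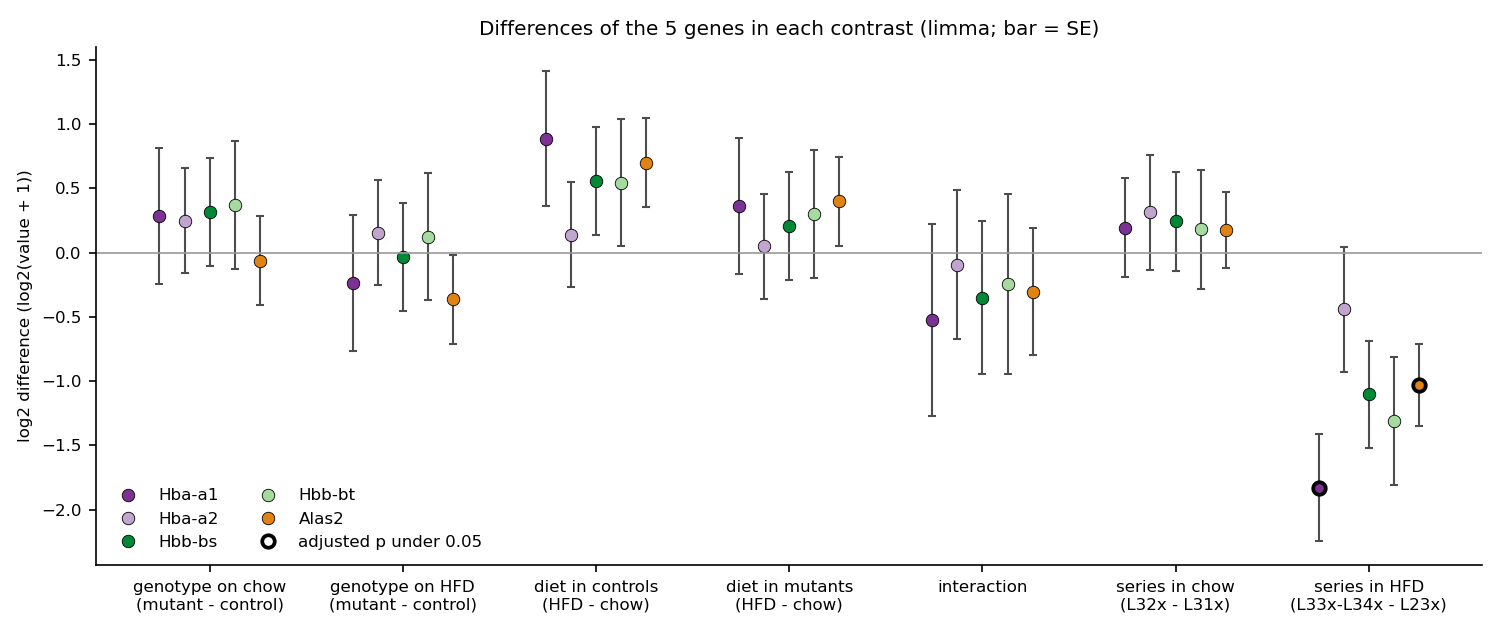
Log2 differences on the log2(value + 1) scale of the 5 genes in the genotype, diet, interaction and title series contrasts, with bars for the SE from limma over 16 libraries. Thick outlines mark an adjusted p under 0.05, seen for Hba-a1 and Alas2 between the HFD series and nowhere else.

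Between the title series of the HFD libraries, Hba-a1 and Alas2 were lower in L33x-L34x than in L23x. With the groups held in the fit, Hba-a1 fell by 1.83 on the log2 scale (SE 0.42), to 0.281 of its level, with a limma adjusted p of 0.00727. Alas2 fell by 1.03 (SE 0.32), to 0.49 of its level, with a limma adjusted p of 0.0314. The differences of the others were -1.10 (SE 0.42) for Hbb-bs, -1.31 (SE 0.50) for Hbb-bt and -0.44 (SE 0.48) for Hba-a2, with limma adjusted p-values of 0.0702, 0.0717 and 0.544. The alpha sum differed by -1.07 (SE 0.43) and the beta sum by -1.12 (SE 0.43), with limma adjusted p-values of 0.0871 and 0.0707, so the size of the Hba-a1 difference is not that of the alpha sum.

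Many genes of the liver moved with the same series, which is the background for these counts. By adjusted p, 25.2% of tested genes were called, and 11.6% were called lower in L33x-L34x, against 2 of 5 members. By unadjusted p, 17.3% of genes were lower, against 4 of 5 members. Without overlap between the 4 and 4 libraries, 16% of genes were lower, against 3 of 5 members, namely Hba-a1, Hbb-bs and Alas2. The median difference of the 5 members was -1.10, against 0.04 for all tested genes, whose absolute difference had a 90th percentile of 0.76. Of all tested genes, 7.79% were higher in the 4 libraries of L23x than in all 8 chow libraries without overlap, and so were Hba-a1 and Alas2 of the 5 members.

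The Hba-a1 and Alas2 calls between the HFD series rested on single libraries. Without Control_HFD 4 the differences were -1.29 for Hba-a1 and -0.82 for Alas2, with limma adjusted p-values of 0.202 and 0.314. In that fit the count of called genes fell from 3197 to 715. Without Mutant_HFD 1 they were -2.37 and -1.24, with limma adjusted p-values of 0.0183 and 0.0946, and Hbb-bt was then called at -2.12, with 0.0494. Alas2 also missed the threshold without Control_HFD 1 (-0.97, adjusted p 0.0551), Control_HFD 2 (-1.01, adjusted p 0.051) or Mutant_HFD 3 (-0.97, adjusted p 0.0565). With every library scaled to the same total, Alas2 was at -0.89, with a limma adjusted p of 0.0552.

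Between the chow series no member was called. L32x minus L31x was 0.20 (SE 0.39) for Hba-a1, 0.32 (SE 0.45) for Hba-a2, 0.24 (SE 0.39) for Hbb-bs, 0.18 (SE 0.46) for Hbb-bt and 0.18 (SE 0.29) for Alas2, with limma adjusted p-values of 0.84 to 0.925. By unadjusted p, 0 of 5 members were called, against 11.6% of tested genes, and by adjusted p 0% of genes. The chow livers nevertheless spanned most of the globin range, from a sum of 1616 in Control_Chow 3 to 5139 in Mutant_Chow 3.

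Other genes of the red cell were then read from lists of membrane, transcription factor, haem and clearance genes. No gene of these lists passed the adjusted threshold in a genotype, diet or interaction contrast. Of 10 embryonic, minor or alternative globins none had a row in the table used. Of 27 genes of the red cell membrane and cytoplasm, 20 had a row and 12 passed the filter. Slc4a1, the band 3 anion exchanger that defines the red cell membrane, was at a very low level of 0 to 0.744, was listed at 0 in 1 library and did not pass the filter. Slc4a1 was at 0.0132 to 0.161 in L23x and 0 to 0.669 in L33x-L34x, ranges that overlapped, and no order of the libraries can be read from values this low.

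Between the HFD series the 12 tested membrane and cytoplasm genes went both ways, with a median of 0.07. By adjusted limma p 5 were higher and 3 lower in L33x-L34x, against 25.2% of all tested genes called in either direction. The lower genes included Bpgm, which makes 2,3-bisphosphoglycerate, at -0.48 (SE 0.16), and the peroxidase gene Prdx2 at -0.32 (SE 0.10), with limma adjusted p-values of 0.0424 and 0.0327. Prdx2 measured 162.5 to 195.3 in L23x and 127.4 to 143.2 in L33x-L34x. The 5 higher genes were Car2, carbonic anhydrase, at 0.96, Ermap at 0.78, Gypc, glycophorin C, at 0.71, Epb41, protein 4.1, at 0.52 and the mitophagy receptor gene Bnip3l at 0.38, with limma adjusted p-values of 0.0011 to 0.0286. Epb41 measured 31.3 to 35.3 in L23x and 45.5 to 52.5 in L33x-L34x, the opposite order to the globins. Most of these genes are known to be expressed in cells other than red cells as well.

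No single erythroid transcription factor or receptor passed the adjusted threshold between the HFD series, where 25.2% of all tested genes were called. Of 12 genes 10 had a row and 9 were tested. Of these, 4 had a difference above 0 and 5 below 0, with a median of -0.14. By unadjusted limma p 1 was higher and 1 was lower, against 17.3% of all tested genes lower by that rule. The lower one was Zfpm1, a cofactor of GATA factors, at -0.62 (SE 0.25), with a limma adjusted p of 0.0937. The higher one was Tfrc, at 0.63 (SE 0.28), with a limma adjusted p of 0.114. The summed level of the list was 83.9 to 116.7 in L23x and 73.3 to 82.0 in L33x-L34x, without overlap. Zfpm1 and Ldb1 made up most of that sum, with means of 45.9 and 27.3 in L23x and 28.1 and 22.2 in L33x-L34x. Klf1, the erythroid Krüppel-like factor, was at 3.69 to 8.84 over the 16 libraries with a difference of -0.30 (SE 0.20), and the erythropoietin receptor gene Epor was at 1.37 to 4.09 with 0.17 (SE 0.21). Gata1 and Gfi1b had no row. Cell division genes summed to 7.40 to 8.62 in L23x and 9.89 to 21.2 in L33x-L34x, without overlap and opposite to the globins. By limma 0 of 8 tested passed by adjusted p, where 1718 of all 12704 tested genes were called higher, and 1 was higher by unadjusted p. The share of all tested genes higher by unadjusted p was not computed, for this list or the erythroid one. Which cells carried these genes was not tested.

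The genes of haem synthesis and mitochondrial iron supply were measured at levels of liver, and Alas2 was a small part of them. Alas1 measured 267.3 to 864.1 over the 16 libraries, whereas Alas2 did not exceed 27.1. Of 15 tested genes, 2 were higher and 1 was lower in L33x-L34x by adjusted limma p, with a median of -0.13. Of all tested genes, 25.2% were called in either direction there. Alad, the enzyme after the synthases, rose by 0.67 (SE 0.12), with a limma adjusted p of 0.00195, opposite to Alas2. Steap3, a ferrireductase gene, fell by 0.61 (SE 0.19), with a limma adjusted p of 0.0328. The closest of this list to the globin mean were Slc25a39 and Tmem14c, with Spearman coefficients of 0.73 and 0.62 over 16 libraries.

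Of 12 genes that clear haem and haemoglobin, 1 was higher and 2 were lower in L33x-L34x by adjusted limma p. The list median was -0.28, and 25.2% of all tested genes were called in either direction there. Lrp1, a receptor for haem bound to haemopexin, fell by 1.01 (SE 0.15) and the biliverdin reductase gene Blvrb fell by 0.42 (SE 0.14), with limma adjusted p-values of 0.000689 and 0.0403. The iron exporter gene Slc40a1 rose by 0.48 (SE 0.15), with 0.0374. The haemoglobin scavenger haptoglobin (Hp) had a difference of -1.26 (SE 0.73) and haemopexin (Hpx) of -0.79 (SE 0.61), with limma adjusted p-values of 0.23 and 0.374. The haem oxygenase gene Hmox1 was at -0.63 (SE 0.34), with a limma adjusted p of 0.203. The summed level of this list was 6691 to 12907 in L23x and 4398 to 5488 in L33x-L34x, without overlap and in the same direction as the globins. Hp and Hpx made up most of that sum, with means of 3977 and 4405 in L23x and 1495 and 2585 in L33x-L34x. Their Spearman coefficients with the globin mean over 16 libraries were 0.15 and 0.34. On chow 1 library stood apart in this sum: Mutant_Chow 2 was at 37782, with Hp at 17950 and Hpx at 19030. Mutant_Chow 1 was at 9699, whereas Mutant_Chow 3 and 4, at 3975 and 4575, lay within the 3576 to 4857 of Control_Chow. By unadjusted limma p 2 of 12 genes were higher in chow mutants, against 6.08% of all tested genes called in either direction. Hp and Hpx were not among these, with unadjusted limma p-values of 0.0533 and 0.0646. Without Mutant_Chow 2, 0 genes of the list were higher and 1 was lower, against 3.33% of all tested genes.

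**Figure D5:**
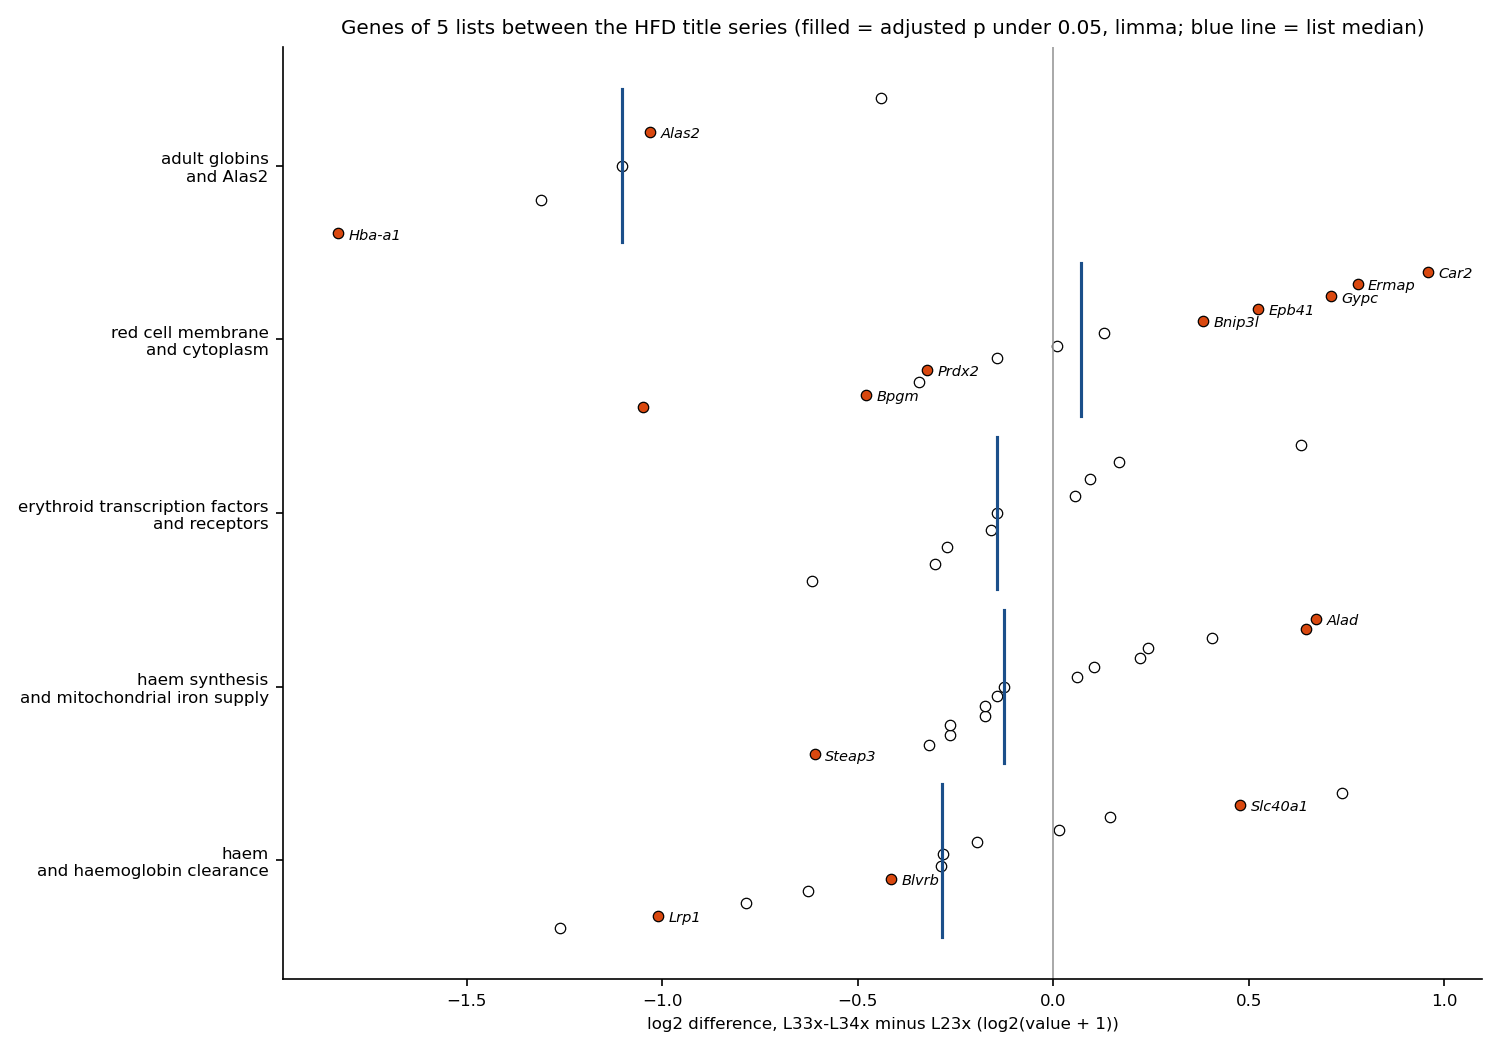
Log2 differences between the HFD title series, L33x-L34x minus L23x, for every tested gene of 5 lists (open points, filled where the limma adjusted p is under 0.05, with names for the genes given in the text), with the list median as a blue line. The members lie between -1.83 and -0.44 with a median of -1.10, while the medians of the other lists lie between -0.28 and 0.07.

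Markers of other blood and liver cells are given beside these values. Of the liver endothelium list, 4 of 10 genes (Stab2, Ptprb, Kdr and Eng) were higher in L33x-L34x by adjusted limma p. Of all 12704 tested genes, 1718 were called higher there. The summed level of the endothelium list was 208.6 to 226.8 in L23x and 246.8 to 292.3 in L33x-L34x, without overlap and opposite to the globins. How often summed levels of other gene lists part without overlap was not computed, here or for the lists above. Of the Kupffer cell list, 1 of 11 passed, C1qa at -1.09 (SE 0.36), against 11.6% of all tested genes called lower. The differences of 4 genes of this list were above 0 and those of 7 below 0, with a median of -0.48. Summed levels of the Kupffer cell list were 529.2 to 780.8 in L23x and 387.2 to 507.5 in L33x-L34x. They did not overlap and went in the same direction as the globins. Over 16 libraries the median Spearman coefficient of its genes with the globin mean was 0.15. The part of these cells in the globin difference was not tested. Platelet markers, 7 genes with a row of which 4 were tested, summed to 20.2 to 28.3 and 19.3 to 25.4. Lymphocyte markers summed to 16.1 to 25.7 and 17.2 to 38.0, and 0 genes passed in either list. Hepatocyte markers summed to 66228 to 82647 and 82127 to 107090, with 0 of 9 passing.

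Neutrophil RNA was very high in 2 of the 4 Mutant_Chow livers. Neutrophil markers summed to 6769.7 in Mutant_Chow 2 and 3146 in Mutant_Chow 1, and to 27.9 and 121.1 in Mutant_Chow 3 and 4, against 4.89 to 14.1 in Control_Chow. By unadjusted limma p 10 of 10 tested genes were higher in chow mutants, against 6.08% of all tested genes called in either direction, with 0 by adjusted p. Without Mutant_Chow 1 and 2, a setting chosen after seeing the data, it was 5 of 7 tested genes, against 2.89%. The median log2 difference of that list was 3.84 with all libraries and 1.94 without these 2. The median of the 5 members was 0.29 with all libraries. The tested neutrophil genes fell from 10 to 7 without Mutant_Chow 1 and 2, so some passed the filter only with livers where they were high. The counts and medians of the neutrophil list are therefore a description and no test of it. The neutrophil genes compared had Spearman coefficients of -0.25 to 0.04 with the globin mean over 16 libraries. Between the HFD series neutrophil markers overlapped, at 8.60 to 27.2 in L23x and 13.6 to 160.0 in L33x-L34x.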

How the data were processed

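Liver RNA of 16 mice was sequenced as bulk libraries, made with a NEBNext Ultra II kit. The authors used kallisto in gene mode on mouse transcripts of mm10, and sleuth for their tests. Tool versions, annotation release and any strand setting were not given in the sources used here. The deposited values are a gene-level signal of TPM type that was adjusted between libraries, since they are fractional and library totals run from 905900 to 1120000. Sequencing depth cannot be read from this scale, so no counting intervals are given. Kallisto divides reads that fit several transcripts by an estimate, which makes values of near-identical genes uncertain.

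The test was limma (version 3.58.1, R version 4.3.3) on log2(value + 1). A gene entered with a value of at least 1 in 4 libraries, which 12704 genes met. The 16 libraries entered 1 fit of 4 group means, with a variance trend, and Benjamini-Hochberg adjustment covered every tested gene, at a threshold of 0.05. The title series were compared in the same fit with a series term within each diet. The scripts were tested on simulated data. Sleuth was not rerun, since it needs output of kallisto that is not used here. P-values weigh a difference against the spread between mice of a group. Without a series term, that spread includes differences between the title series.

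The members and all gene lists were chosen with earlier results of these data known. Of each pathway list, genes past the adjusted threshold in any contrast were named, and otherwise at most 6 with the highest mean, and a few genes that meet this rule are not reported here. Of marker lists, at most 3 with the highest mean and any past the threshold were named. Slc4a1 and Hmox1 were named for what they encode, outside this rule, after their values were seen. Genes like the globins were ranked by Spearman coefficient with the mean log2(value + 1) of the globins. Transcripts and positions came from GENCODE M21, promoters from RefSeq, which matched all 5 members. Alternatives were other scalings, a pseudocount of 0.1, other filters, a series term, library weights, fits of only the groups compared, summed copies, each library left out, and, chosen after seeing the data, each HFD series left out and, for 3 lists on chow, Mutant_Chow 1 and 2 left out.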

Additional observations from a re-analysis of the deposited data

Results flagged for a closer look

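Among the members and their ratios, 1 value of 52 groups of 4 libraries lay far from the other 3 by Dixon's test at its 95% limit, and chance alone gives about 1 such group in 20. In Mutant_HFD 1 the share of Hba-a1 in the alpha sum was 59.6%, against 32.1% to 34.9% in Mutant_HFD 2 to 4, a gap of 0.898 of the whole range. Control_HFD 2 and Control_HFD 3, of the same title series L23x, had shares of 60.7% and 58.5%. The beta share of Hbb-bt in Mutant_HFD 1 was 12.4%, within the 12.2% to 14.2% of that group, and its alpha to beta ratio of 1.28 was the lowest of all 16 libraries. The reads behind the division of the alpha copies were not analysed here, and the cause was not tested.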

How the results depend on the processing

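Of the member values recomputed under the alternatives, 577 kept their direction and their side of the threshold, 63 reversed, 10 lost and 8 gained a call. The cause of these changes was not tested unless the setting itself removed libraries. A pseudocount of 0.1 and median-of-ratios scaling changed no call and no direction of a member. Scaled to the same total, with and without the members in it, the HFD genotype difference of Hbb-bs became 0.0488 and 0.0486, the diet difference of Hba-a2 in controls -0.034 and -0.0327, the interaction of Hba-a2 0.0728 and 0.0723, and the HFD series difference of Alas2 -0.89 both times (adjusted p 0.0552 and 0.0556), with 2 genes called for diet in controls. Without a filter 2 genes were called between the chow series, and with a filter at 5 there was 1 for genotype on chow. With the series term the HFD genotype differences were 0.68 (Hba-a1), 0.52 (Hbb-bs) and 0.15 (Alas2), the interactions 0.44 (Hba-a1), 0.21 (Hba-a2), 0.26 (Hbb-bs), 0.46 (Hbb-bt) and 0.26 (Alas2), the diet difference of Hba-a1 in controls 1.44 (adjusted p 0.0488), and 1, 1240 and 95 genes were called for genotype on chow, diet in controls and diet in mutants. With library weights the genotype differences were 0.0905 (Alas2, chow), -1.02 (Hba-a1, HFD), -0.37 (Hbb-bt, HFD) and -0.77 (Alas2, HFD), the diet differences 1.46 (Hba-a1) and 0.98 (Alas2) in controls and -6e-04 (Hba-a2) in mutants, the series differences -1.02 (Alas2, HFD, adjusted p 0.0684) and, on chow, -0.31 (Hba-a1), -0.18 (Hba-a2), -0.26 (Hbb-bs), -0.35 (Hbb-bt) and -0.24 (Alas2), with 6, 3926, 2264 and 9 genes called for genotype on chow and on HFD and for diet in controls and in mutants. With only the groups compared these counts were 6, 1, 4 and 1. With copies summed, the HFD genotype differences were -0.0257 (alpha) and -0.0161 (beta), and the HFD series difference of alpha was -1.07. Without L23x the diet differences in controls were -0.89 (Hba-a1), -0.73 (Hba-a2), -0.65 (Hbb-bs), -1.04 (Hbb-bt) and -0.23 (Alas2), with 11 genes called in controls and 2 in mutants. Without L33x-L34x they were 1.48 (Hba-a1) in controls and -0.16 (Hba-a2) in mutants, with 1418 and 76 genes called. Leaving out each library in turn gave, for genotype on chow, 1 to 14 genes called, -0.0092 to 0.52 (Hba-a1) and -0.28 to 0.16 (Alas2). For genotype on HFD it gave 2 to 141 genes, -0.13 to 0.53 (Hba-a2), -0.44 to 0.20 (Hbb-bs) and -0.40 to 0.40 (Hbb-bt), with 141 without Mutant_HFD 1. For diet it gave 0 to 928 genes, 0.59 to 1.48 (Hba-a1) and -0.23 to 0.43 (Hba-a2) in controls, with 928 without Control_HFD 4, and 0 to 2 genes and -0.17 to 0.23 (Hba-a2) in mutants. The interaction ran from -0.38 to 0.28 (Hba-a2) and -0.77 to 0.10 (Hbb-bt). Between the HFD series it gave 715 to 3011 genes, -2.37 to -1.29 (Hba-a1), -1.16 to 0.28 (Hba-a2), -2.12 to -0.50 (Hbb-bt) and -1.24 to -0.82 (Alas2), and between the chow series 0 to 2 genes, -0.26 to 0.66 (Hba-a1), -0.10 to 0.73 (Hba-a2), -0.16 to 0.69 (Hbb-bs), -0.24 to 0.71 (Hbb-bt) and -0.35 to 0.53 (Alas2). A fit without Control_HFD 4 or Mutant_HFD 1 leaves L33x-L34x without a control or L23x without a mutant. No paired analysis was possible because the labels give no replicate numbers. Depth is unknown, so the error of low values such as Alas2 is known only from the spread between mice.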

Other observations

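After the group means were taken out, the members still varied together within groups. The Pearson coefficient of these residuals over 16 libraries was 0.95 between Alas2 and the mean of the globins, 0.98 between Hbb-bs and Hbb-bt, 0.93 between Hbb-bt and Alas2, and 0.69 between Hba-a1 and Hba-a2. Outside the members the highest residual coefficients belonged to Cgrrf1, at 0.88, the pseudogene Ndufa12-ps, at 0.88, and the transporter gene Abcb8, at 0.85. Of the red cell membrane and cytoplasm list the highest was Mkrn1, at 0.75 (place 30 of the 8721 genes compared), and Epb41 was at -0.58.

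On chow, no gene of cell division passed the adjusted limma threshold between genotypes. Their summed level was 47.9 in Mutant_Chow 2 and 30.7 in Mutant_Chow 1, and 12.1 and 11.7 in Mutant_Chow 3 and 4, close to the highest control, in a control range of 6.63 to 10.9. By unadjusted limma p 5 of 8 tested were higher in mutants, against 6.08% of all tested genes called in either direction, and without Mutant_Chow 1 and 2 it was 1 of 5, against 2.89%. Leaving out either of these libraries alone gave 3 of 7. Fewer of the genes passed the filter without these libraries, so some entered only with livers where they were high. The counts are therefore no test of the list. Klf1 had a log2 difference of -0.27 on chow.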
